A study of Mus musculus with 23 samples.

Results

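The genes Spi1, Irf8, Maf, Mef2c, Mef2a, Runx1, Klf4, Cebpb and Nr4a1 encode transcription factors of the macrophage lineage, and several of them separate the resident macrophages of the brain tissue, the microglia (MG), from the macrophages of its borders. These 9 genes were taken by symbol from a table of 33280 genes, and the lowest count of any of them in a library was 114. Levels are given in CPM, the counts of a gene scaled to a common library size, here with library totals adjusted by TMM factors. The cells came from Ccr2creERT2/+ R26tdT/tdT mice of both sexes, aged 10 ± 3 weeks at the first gavage. In this line tamoxifen activates a Cre enzyme in cells that express the monocyte receptor gene Ccr2, and those cells and their descendants then carry the red reporter tdTomato (tdT). The mark follows Ccr2 expression at the time of tamoxifen and not monocyte origin itself.

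All animals received a gavage of 7 days, 3 tamoxifen injections of 2 mg spaced by 2 days from its last day on, a thrombin-induced clot in the middle cerebral artery 8 weeks later, and were killed 1 day after that stroke. The gavage held either BLZ945 (200 mg/kg), which blocks CSF-1R signalling, depletes brain macrophages and is followed by their repopulation, or vehicle (CTL). Brain slices freed of choroid plexus were sorted into MG, which were CD45int CD11b+ CD206-, and into subdural CNS-associated macrophages (sdCAMs), the CD206+ macrophages of the leptomeninges and the perivascular spaces, which were divided into tdT- and tdT+ cells. The study's methods add that cells positive for Ly6C, Ly6G or CD11c, markers of monocytes, neutrophils and dendritic cells, were gated out. Of the 23 libraries, tdT+ BLZ945 sdCAMs had 3, and MG and tdT- sdCAMs had 5 from each treatment, named MG CTL, MG BLZ945, tdT- CTL and tdT- BLZ945. Every group thus had a stroke and tamoxifen, and no tdT+ group existed without BLZ945. CTL libraries held 1 animal each, and each BLZ945 replicate pooled 2 animals by the study's methods, though the library names labelled F2 carry 1 animal number, so whether F2 was pooled is not settled.

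In macrophages, the protein of Spi1 (PU.1) opens lineage enhancers together with partners such as Irf8, Runx1 and C/EBP proteins, and the combination of partners differs between tissues. MEF2 factors, and SALL1 with them, act with PU.1 on the enhancers of microglia, while MAF belongs to resident macrophages and restrains self-renewal. Klf4 and Nr4a1 are known from the differentiation and survival of monocytes, and Nr4a1 is also an immediate early gene, transcribed within minutes of a stimulus or of tissue handling.

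Total counts lay between 9433960 and 13276100 per library. No library was a copy of another (lowest chi-square per gene between libraries of a group 15.7). The 5 microglia markers summed to 16949 to 25856 CPM in MG and to 1152 to 2354 CPM in sdCAMs, and the 5 sdCAM markers to 9.85 to 47.5 CPM in MG and to 8244 to 14275 CPM in sdCAMs. The labels of the BLZ945 libraries M1 and F2 named the same mouse number. Xist lay at 109 to 192 CPM in the 3 F2 libraries and at 0 CPM in both M1 libraries, while Ddx3y lay at 0 CPM in F2 and at 88.2 and 93.5 CPM in M1, so that the sex given by each label was the sex measured. As in all bulk samples, fewer cells of a type and less RNA per cell cannot be told apart.

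Markers of other cells differed between the populations as well. The 5 dendritic cell markers summed to 222 to 782 CPM in tdT- CTL, 30.9 to 161 CPM in tdT- BLZ945 and 34.7 to 84.5 CPM in tdT+ BLZ945, against at most 8.86 CPM in MG. Most of this sum was Cd209a, a lectin gene (means of 442.8, 86.7 and 46.3 CPM). Cd209a and Zbtb46 were called higher in all 3 sdCAM groups with edgeR, and Flt3, the other marker tested, was not (1.41 in tdT- CTL against 1.84 CPM in MG CTL, and 5.16 in tdT- BLZ945 and 3.88 in tdT+ BLZ945 against 1.07 CPM in MG BLZ945). The 6 monocyte markers had medians of 7.60 to 22.8 CPM over the groups, with 233 CPM in the library tdT- BLZ945 F1. Of 5 monocyte markers tested, 3 were called higher in tdT- BLZ945 than in MG BLZ945 (median log2 fold change 3.17). Among them were Ccr2 (35.9 against 4.01 CPM) and Plac8 (30.5 against 0.963 CPM). None was called in the other 2 sdCAM groups. The paper also counts Ccr2 in its signature of sdCAMs that derive from hematopoietic stem cells. The 4 erythroid markers reached 313 CPM in tdT- BLZ945 F2 and had medians of at most 10.4 CPM in every group. The median was 0.643 CPM in tdT- BLZ945 and 1.67 CPM in MG BLZ945. The 2 tested, Hba-a1 and Hbb-bt, were called higher in tdT- BLZ945 (median log2 fold change 5.08) and not in the other 2 sdCAM groups. Of the 9 members, 6 were called between tdT- BLZ945 and MG BLZ945 with all libraries, 6 without tdT- BLZ945 F1 and 7 without tdT- BLZ945 F2. With all libraries 32.4% of 12697 genes were called, and the shares for the other 2 fits are not given here. Neutrophil markers (6 genes) had medians of 183 and 195 CPM in MG and of 44.7 to 69.2 CPM in sdCAMs, mostly from the receptor gene Csf3r (means of 177 and 199 CPM in MG and 39.7 to 58.1 CPM in sdCAMs), the 1 marker called, lower in all 3 sdCAM groups. S100a8 had means of 3.61 and 4.57 CPM in MG. The 9 markers of neurons and glia had medians of 161 to 304 CPM, the 6 endothelial markers 8.00 to 27.4 CPM, the 6 mural and fibroblast markers 2.55 to 37.4 CPM and the 8 lymphocyte markers at most 2.03 CPM. Of 5 endothelial markers tested, 1 was called lower in tdT- CTL (Pecam1, 2.45 against 15.4 CPM), 1 higher (Cldn5) and 2 lower (Pecam1 and Kdr) in tdT- BLZ945, and none of them in the tdT+ libraries (edgeR; 2 had an unadjusted p under 0.05 there). In tdT- CTL against MG CTL, 5 of the 8 neuron and glia markers tested were called higher and 1 lower, the astrocyte transporter gene Slc1a3 (12.1 against 227.6 CPM), with a median log2 fold change of 1.92. In tdT- BLZ945 and tdT+ BLZ945 sdCAMs 5 and 6 of 8 were higher and 1 and 0 lower. Of the mural and fibroblast markers tested, 3 of 6, 2 of 6 and 1 of 4 were called higher in these 3 comparisons and 0 lower, with a median of 2.72 in CTL animals. Their part in the differences between groups was not tested, and values without a library are given where its removal changed a call.

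The first question was how the factors differ between sdCAMs and MG of the same brains. In CTL animals, Klf4, Maf, Nr4a1 and Cebpb were higher in tdT- sdCAMs than in MG, and Irf8, Mef2a, Runx1 and Mef2c were lower. Spi1, the lineage factor that both populations need, was the 1 member that did not pass the test. Called means a Benjamini-Hochberg adjusted p-value under 0.05 in the quasi-likelihood test of edgeR, with the adjustment made across the whole table. In this comparison 25.6% of 12697 genes were called, 15.3% higher and 10.3% lower in tdT- sdCAMs. Of the 9 members 8 were called, 4 in each direction, and the groups did not overlap for 5 members (Irf8, Maf, Mef2a, Runx1 and Klf4), against 26.8% of all genes. The median log2 fold change over the members was -0.14, and over all genes -0.0070.

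**Figure D1:**
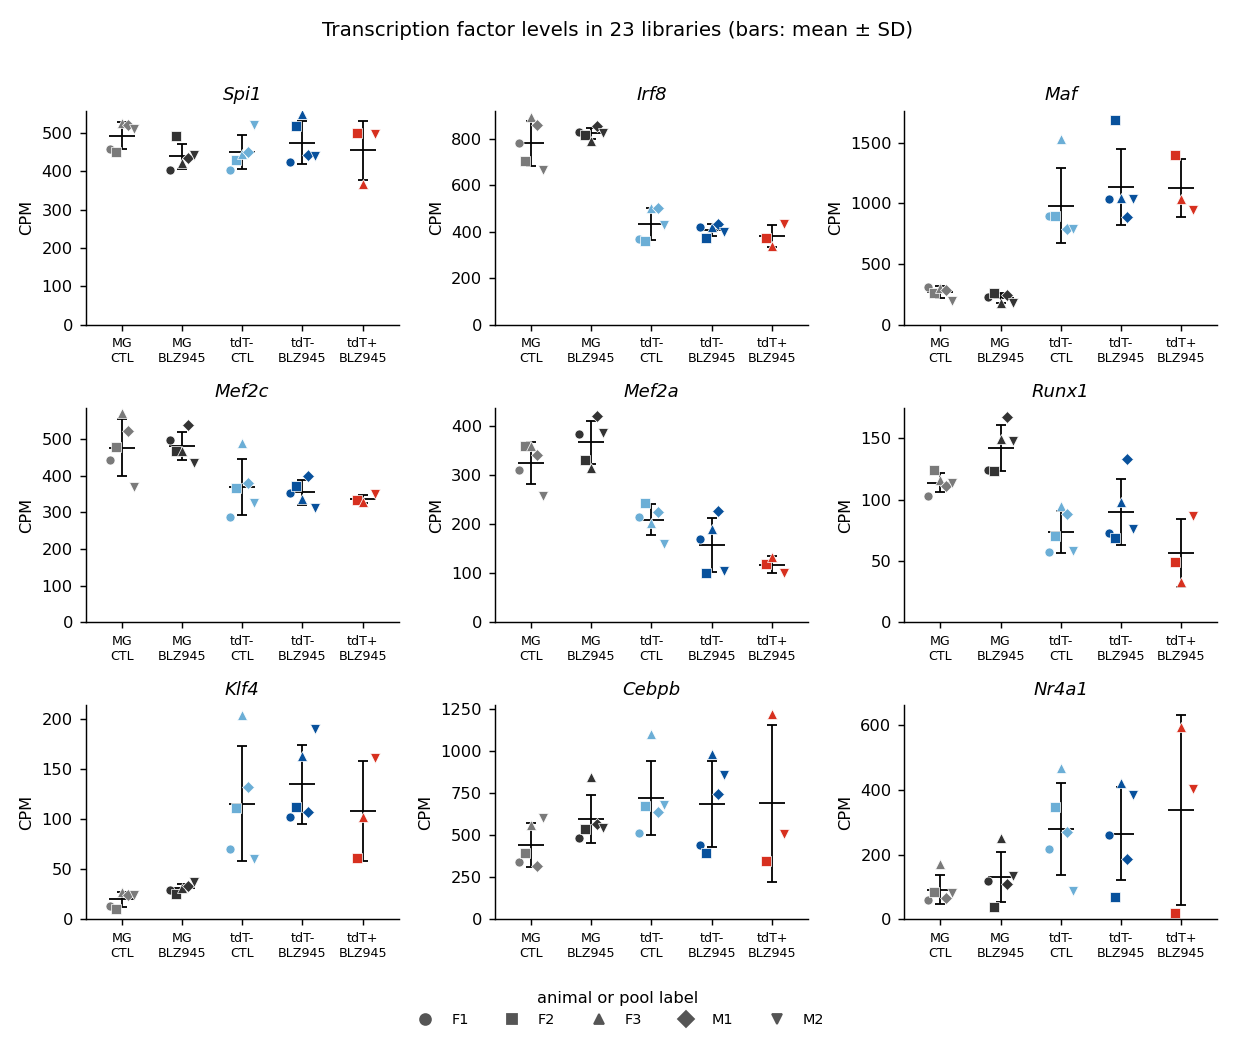
Level of each factor in CPM (vertical axes, each from 0) in the 23 libraries by group (horizontal axes), with symbols for the animal or pool label and bars for mean ± SD. Maf and Klf4 lie higher in every sdCAM library than in any MG library, Irf8 lies lower in every one, and Spi1 lies between 366 and 548 CPM throughout.

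In BLZ945 animals 6 of the 9 members were called between tdT- sdCAMs and MG, where 32.4% of all genes were called (18.3% higher, 14.1% lower). Maf and Klf4 were higher, and Irf8, Mef2a, Runx1 and Mef2c were lower. The same 6 members in the same directions were called between tdT+ sdCAMs and MG, where 18.9% of all genes were called (11.8% higher, 7.05% lower). The groups did not overlap for Irf8, Maf, Mef2c, Mef2a and Klf4 with tdT- BLZ945 sdCAMs, against 22% of all genes, and for these and Runx1 with tdT+ sdCAMs, against 34.8% of all genes. The last 2 comparisons share the MG BLZ945 libraries. The median log2 fold change over the 9 members was 0.12 with tdT- BLZ945 and 0.058 with tdT+ sdCAMs, against -0.018 and -0.0098 over all genes tested.

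**Figure D2:**
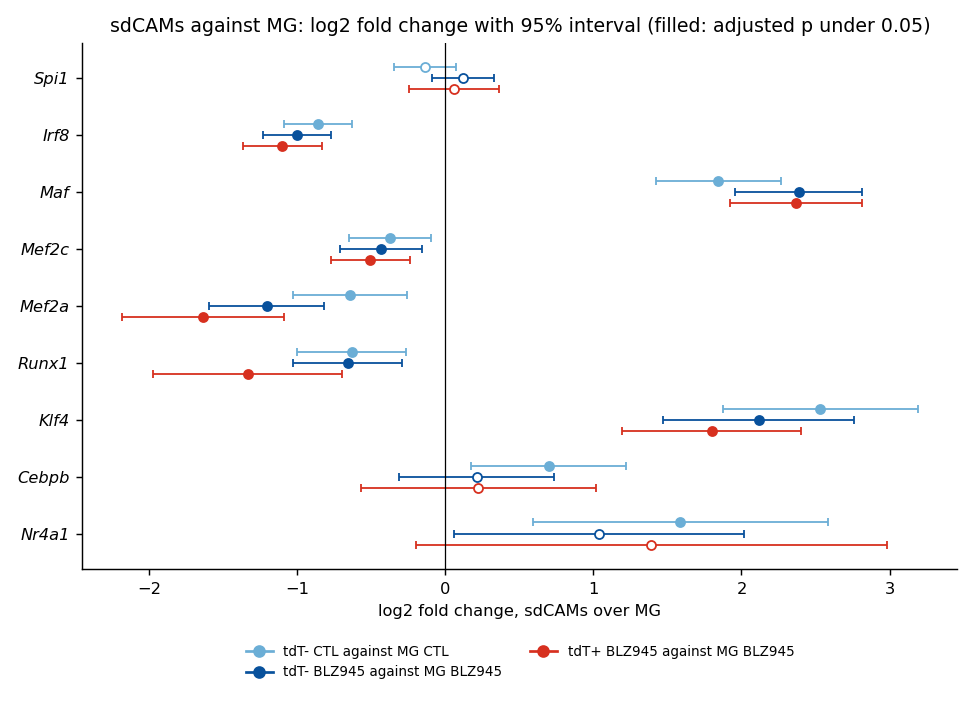
Log2 fold change of each factor in sdCAMs over MG (horizontal axis) with its 95% interval, for tdT- CTL, tdT- BLZ945 and tdT+ BLZ945 sdCAMs against the MG of the same treatment, with filled points where the adjusted p-value was under 0.05. Irf8, Maf, Mef2c, Mef2a, Runx1 and Klf4 are filled in all 3 comparisons, Cebpb and Nr4a1 in CTL animals, and Spi1 in none.

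Spi1 encodes PU.1, the factor on which all macrophages depend. Its levels in MG were 458, 451, 525, 521 and 511 CPM in CTL and 404, 492, 422, 436 and 442 CPM in BLZ945 animals (here and below in the order F1, F2, F3, M1, M2). In tdT- sdCAMs they were 405, 430, 446, 450 and 521 CPM in CTL and 423, 519, 548, 443 and 440 CPM in BLZ945 animals. The tdT+ libraries F2, F3 and M2 held 499, 366 and 498 CPM. All groups overlapped, and Spi1 had the smallest coefficient of variation of the 9 members in tdT- CTL (9.60%). The log2 fold change of tdT- sdCAMs against MG was -0.14 (95% interval -0.35 to 0.073, edgeR adjusted p = 0.379) in CTL and 0.12 (interval -0.087 to 0.33, adjusted p = 0.382) in BLZ945 animals, and that of tdT+ sdCAMs was 0.058 (interval -0.25 to 0.36, adjusted p = 0.834).

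Irf8, an interferon regulatory factor that pairs with PU.1, was lower in sdCAMs. MG held 781, 703, 891, 857 and 667 CPM in CTL and 827, 816, 790, 853 and 825 CPM in BLZ945 animals. Levels in tdT- sdCAMs were 370, 358, 501, 503 and 427 CPM in CTL and 420, 371, 420, 433 and 397 CPM in BLZ945 animals, and tdT+ libraries held 374, 337 and 432 CPM. No sdCAM library reached the lowest MG library, and Irf8 was lower in the tdT- library of 5 of 5 CTL and 5 of 5 BLZ945 animals. In edgeR, Irf8 was 1.81-fold lower in CTL (log2 fold change -0.86 ± 0.11, SE, adjusted p = 3.23e-06), 2.00-fold lower in tdT- BLZ945 (-1.0 ± 0.11, adjusted p = 3.86e-07) and 2.14-fold lower in tdT+ sdCAMs (-1.10 ± 0.13, adjusted p = 1.51e-05).

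Because Irf8 and Spi1 act as a pair, their counts were also set against each other within each library, which needs no scaling between libraries. Irf8 counts divided by Spi1 counts gave 1.58 in MG CTL (SD 0.165, n = 5) and 1.88 in MG BLZ945 (SD 0.145, n = 5). Means for sdCAMs were 0.962 (SD 0.149, n = 5) for tdT- CTL cells, 0.870 (SD 0.125, n = 5) for tdT- BLZ945 cells and 0.846 (SD 0.0869, n = 3) for tdT+ cells. The lowest MG library (1.31, MG CTL M2) lay above the highest sdCAM library (1.12). The ratio also depends on the lengths of the transcripts, so groups can be compared by it but its distance from 1 has no meaning.

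Runx1, a runt-domain factor needed early in the blood lineage, was lower in sdCAMs. Its levels in MG were 103, 124, 116, 111 and 114 CPM in CTL and 124, 123, 149, 168 and 148 CPM in BLZ945 animals. In tdT- sdCAMs they were 57.2, 70.0, 94.8, 88.4 and 57.7 CPM in CTL and 72.3, 68.2, 98.1, 133 and 76.3 CPM in BLZ945 animals, and in tdT+ libraries 49.3, 32.6 and 86.6 CPM. CTL groups did not overlap, whereas in BLZ945 animals the tdT- library M1 (133 CPM) lay within the range of MG. The log2 fold change in edgeR was -0.63 ± 0.18 (SE, adjusted p = 0.00994) in CTL, -0.66 ± 0.18 (adjusted p = 0.00633) in tdT- BLZ945 and -1.33 ± 0.30 (adjusted p = 0.00576) in tdT+ sdCAMs, and in the last of these it lay between -1.80 and -1.06 when single libraries were left out.

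Cebpb, a bZIP factor that is induced in inflammation, varied more between animals than the other partners of PU.1. MG held 342, 391, 563, 314 and 601 CPM in CTL and 480, 539, 843, 566 and 545 CPM in BLZ945 animals. Levels in tdT- sdCAMs were 513, 673, 1098, 637 and 679 CPM in CTL and 444, 394, 984, 745 and 856 CPM in BLZ945 animals, and in tdT+ libraries 344, 1220 and 505 CPM. All groups overlapped, and the coefficient of variation was 67.6% in tdT+ sdCAMs. In CTL animals Cebpb was higher in the tdT- library of 5 of 5 animals, 1.62-fold in edgeR (log2 fold change 0.70 ± 0.25, SE, adjusted p = 0.0465), a call kept without tdT- CTL F1, MG CTL F3 or MG CTL M2 and lost without any of the other 7 libraries (adjusted p up to 0.200, without tdT- CTL F3) and in the model of all 23 libraries (0.103). In BLZ945 animals the log2 fold change was 0.21 (interval -0.31 to 0.74, adjusted p = 0.558) with tdT- and 0.22 (interval -0.57 to 1.02, adjusted p = 0.738) with tdT+ sdCAMs. The latter turned to -0.068 (edgeR adjusted p = 0.891) with each animal or pool as a block and to -0.48 (adjusted p = 0.387) without tdT+ BLZ945 F3, and Cebpb was lower in the tdT+ library of F2 and M2 and higher in that of F3.

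Maf, a large bZIP factor of resident macrophages, was the member with the lowest adjusted p-value in all 3 comparisons of sdCAMs with MG. Its levels in MG were 309, 264, 304, 288 and 192 CPM in CTL and 231, 264, 179, 244 and 177 CPM in BLZ945 animals. In tdT- sdCAMs they were 895, 897, 1528, 790 and 791 CPM in CTL and 1033, 1685, 1044, 887 and 1033 CPM in BLZ945 animals, and in tdT+ libraries 1398, 1034 and 943 CPM. Every sdCAM library lay above every MG library, with single high libraries in tdT- CTL (F3) and tdT- BLZ945 (F2). In edgeR, Maf was 3.59-fold higher in CTL (log2 fold change 1.84 ± 0.20, SE, adjusted p = 3.53e-07), 5.23-fold in tdT- BLZ945 (2.39 ± 0.21, adjusted p = 8.89e-09) and 5.17-fold in tdT+ sdCAMs (2.37 ± 0.21, adjusted p = 9.51e-07). Without tdT- CTL F3 the first log2 fold change was 1.61, the lowest of the 10 fits that left out 1 library, and without tdT- BLZ945 F2 the second was 2.19, again the lowest.

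The pair of MEF2 factors, MADS-box proteins that act on microglia enhancers, was lower in sdCAMs. Mef2c held 445, 480, 571, 523 and 369 CPM in MG CTL and 498, 469, 469, 538 and 436 CPM in MG BLZ945. In sdCAMs it held 286.2, 367, 489, 381 and 326 CPM in tdT- CTL, 352, 373, 336, 399 and 313 CPM in tdT- BLZ945, and 334, 328 and 350 CPM in tdT+ BLZ945. Mef2c groups overlapped in CTL, where MG CTL M2 was the low library and tdT- CTL F3 the high one, and did not overlap in BLZ945 animals. The log2 fold change in edgeR was -0.37 ± 0.13 (SE, adjusted p = 0.0425) in CTL, -0.43 ± 0.13 (adjusted p = 0.0161) in tdT- BLZ945 and -0.50 ± 0.13 (adjusted p = 0.0107) in tdT+ sdCAMs. Mef2c was lower in the tdT- library of 5 of 5 CTL animals, but the CTL call was lost without any library other than MG CTL M2 and tdT- CTL F3 (adjusted p up to 0.126, without MG CTL F3). It was also lost with RLE factors (0.0556), without the filter on low counts (0.0861) and with genes of at least 10 counts in every library (0.0503).

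Mef2a stood at 311, 359, 359, 340.1 and 257.7 CPM in MG CTL and at 385, 330, 315, 420 and 386 CPM in MG BLZ945. In sdCAMs its levels were 215, 242, 203, 225 and 159 CPM in tdT- CTL, 169, 100.3, 191, 227 and 104 CPM in tdT- BLZ945, and 118, 133 and 100.4 CPM in tdT+ BLZ945. No sdCAM library reached the lowest MG library, and within tdT- BLZ945 the libraries F2 and M2 lay under the lowest tdT- CTL library. The log2 fold change in edgeR was -0.64 ± 0.19 (SE, adjusted p = 0.0121) in CTL, -1.21 ± 0.19 (adjusted p = 3.37e-05) in tdT- BLZ945 and -1.64 ± 0.26 (adjusted p = 0.000327) in tdT+ sdCAMs. Lysmd4 overlaps Mef2a on the opposite strand. The highest Lysmd4 count was 185, against 927 to 4760 counts of Mef2a, which is the most that reads of Lysmd4 itself were counted in any library. The ratio of Mef2c to Mef2a counts was 1.47 (MG CTL), 1.32 (MG BLZ945), 1.80 (tdT- CTL), 2.47 (tdT- BLZ945) and 2.92 (tdT+ BLZ945) on average. The highest MG library lay at 1.59. All tdT- BLZ945 libraries (1.76 to 3.72) and all tdT+ libraries (2.46 to 3.49) lay above it, while tdT- CTL (1.33 to 2.41) overlapped MG.

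**Figure D3:**
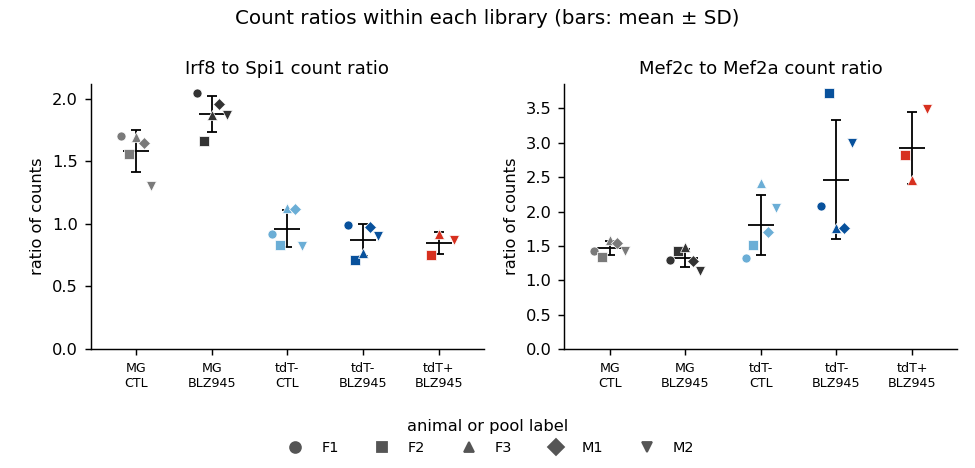
Ratio of counts within each library (vertical axes, from 0) for Irf8 to Spi1 and Mef2c to Mef2a, by group (horizontal axes), with symbols for the animal or pool label and bars for mean ± SD. For Irf8 to Spi1 every MG library lies at 1.31 or more and every sdCAM library at 1.12 or less. The Mef2c to Mef2a ratios of MG overlap with those of tdT- CTL sdCAMs and lie below those of both BLZ945 sdCAM groups.

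Klf4, a zinc-finger factor of monocytes and of quiescent cells, showed the largest fold change of the members in CTL animals. Its levels in MG were 13.2, 9.92, 27.0, 24.3 and 24.5 CPM in CTL and 29.6, 25.2, 31.5, 33.1 and 37.1 CPM in BLZ945 animals. In tdT- sdCAMs they were 70.1, 111, 203, 132 and 59.7 CPM in CTL and 102, 112, 163, 106 and 190 CPM in BLZ945 animals, and in tdT+ libraries 61.2, 102 and 160 CPM. The lowest sdCAM library lay above the highest MG library. Klf4 was 5.79-fold higher in CTL (log2 fold change 2.53 ± 0.32, SE, edgeR adjusted p = 2.05e-06), 4.33-fold in tdT- BLZ945 (2.12 ± 0.31, adjusted p = 1.63e-05) and 3.48-fold in tdT+ sdCAMs (1.80 ± 0.28, adjusted p = 0.000351).

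Nr4a1, an orphan nuclear receptor and immediate early gene, had the largest coefficient of variation of the 9 members in every group (48.4% to 86.5%). MG held 61.2, 84.3, 170, 64.7 and 80.8 CPM in CTL and 118, 38.6, 252, 109 and 134 CPM in BLZ945 animals. Levels in tdT- sdCAMs were 218, 348, 468, 271.7 and 88.4 CPM in CTL and 261, 69.8, 422, 188 and 386 CPM in BLZ945 animals, and in tdT+ libraries 19.0, 594 and 402 CPM. Groups overlapped in every comparison, yet Nr4a1 was higher in the tdT- than in the MG library of 5 of 5 CTL and 5 of 5 BLZ945 animals. In edgeR the log2 fold change was 1.59 ± 0.48 (SE, adjusted p = 0.0165) in CTL animals, a call lost without tdT- CTL F3 (adjusted p = 0.0612) and in the model of all 23 libraries (0.0606). In BLZ945 animals it was 1.04 ± 0.47 (edgeR adjusted p = 0.0987), and 1.02 ± 0.23 (adjusted p = 0.00509) when each animal or pool was fitted as a block. Nr4a1 was also called there without tdT- BLZ945 F2 (adjusted p = 0.0335) or without MG BLZ945 F3 (0.0329). With tdT+ sdCAMs it was 1.39 ± 0.75 (adjusted p = 0.224, and 0.0406 without tdT+ BLZ945 F2, the library at 19.0 CPM). Without tdT+ BLZ945 F3 it was 0.70 (adjusted p = 0.640), and with each animal or pool as a block 0.75 (adjusted p = 0.241).

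The highest and the lowest library of each member were looked up in every group of a treatment. In 10 of 36 cases the same animal or pool held that place in every group, and in 26 it did not. Each treatment gave 5 such cases of 18. The cases listed below were picked out after the values were seen and not tested. The tdT+ group held F2, F3 and M2 only. Among BLZ945 animals, F3 had the highest Nr4a1 and the highest Cebpb, and F2 the lowest Nr4a1, in all 3 of the MG, tdT- and tdT+ groups. M2 had the highest Klf4 and F2 the highest Maf in all 3 groups. Among CTL animals, F3 had the highest Nr4a1, Klf4 and Mef2c in both MG and tdT- sdCAMs, M2 the lowest Mef2a and F1 the lowest Runx1. F2 was also the BLZ945 label whose library names carry 1 animal number.

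Summed over 14 immediate early genes such as Fos, Egr1 and Dusp1, a list without the 9 members, levels ran from 17454 to 24374 CPM in MG CTL, 18135 to 28118 in MG BLZ945, 14569 to 39178 in tdT- CTL, 13768 to 33542 in tdT- BLZ945 and 10119 to 35070 in tdT+ BLZ945. The lowest of the sdCAM libraries were tdT- CTL M2 (14569), tdT- BLZ945 F2 (13768) and tdT+ BLZ945 F2 (10119), which were also the lowest for Nr4a1 in their groups. Over the 10 tdT- libraries, log2 Nr4a1 and the log2 sum had a Pearson r of 0.905 (permutation p = 0.00297) and a Spearman rho of 0.758 (permutation p = 0.0154), and over the 10 MG libraries an r of 0.616 (permutation p = 0.0585) and a rho of 0.564 (permutation p = 0.0945). After adjustment over 18 relations (9 genes, 2 populations) the tdT- values were 0.0535 and 0.153. Without the 2 libraries farthest from the median sum r fell to 0.447. Their removal also narrows the range of the sum, so it cannot show how far the relation rests on them. Klf4 had an r of 0.760 in MG (permutation p = 0.00859, adjusted p = 0.0773) and 0.578 in tdT- sdCAMs (permutation p = 0.0752, adjusted p = 0.192). Irf8 in MG (r = 0.649, permutation p = 0.0413, adjusted p = 0.186) and Mef2a in tdT- sdCAMs (r = 0.655, permutation p = 0.0288, adjusted p = 0.173) had the next lowest p-values. None of the 18 relations passed after adjustment. Each population pools CTL and BLZ945 libraries, and with values centred on their group r was 0.909 for Nr4a1 in tdT- sdCAMs and 0.734 for Klf4 in MG. The part of the immediate early genes in the group differences was not tested.

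**Figure D4:**
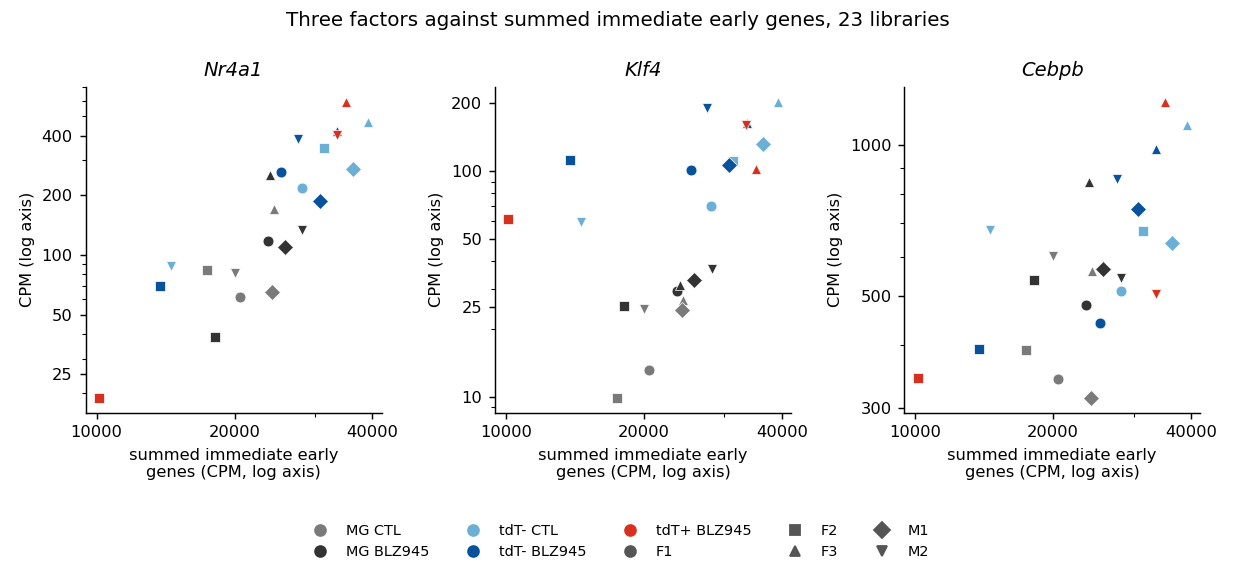
Level of Nr4a1, Klf4 and Cebpb (vertical log axes, CPM) against the summed level of 14 immediate early genes (horizontal log axes, CPM) in the 23 libraries, with colours for groups and symbols for the animal or pool label. The library with the lowest sum (tdT+ BLZ945 F2, 10119 CPM) is also the lowest for Nr4a1 at 19.0 CPM, and every sdCAM library has more Klf4 than any MG library.

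The sequences before the starts of Nr4a1, Cebpb and Klf4 are shown because the core of the cAMP response element (TGACG, or CGTCA on the other strand), known from genes that respond quickly to stimuli, was found in these alone of the members searched. The set of RefSeq (GRCm38.p6) starts used here held 7 of the 9 members, 11 windows of 250 bases in all. Spi1 and Maf had no entry in this set and were not searched. The core was in 3 of the 11 windows, against 17.8% of 32851 windows of the same length, and its letters were chosen after the sequences had been seen. Capitals mark the cores, and each window is written 5′ to 3′ on the strand of its gene and ends at the base before the start.
Nr4a1 (chr15:101266596-101266845, + strand): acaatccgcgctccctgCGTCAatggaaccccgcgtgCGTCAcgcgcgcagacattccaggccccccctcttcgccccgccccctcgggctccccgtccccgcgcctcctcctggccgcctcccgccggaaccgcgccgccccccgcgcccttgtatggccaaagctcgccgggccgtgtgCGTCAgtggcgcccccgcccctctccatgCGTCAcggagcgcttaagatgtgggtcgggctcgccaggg
Cebpb (chr2:167688665-167688914, + strand): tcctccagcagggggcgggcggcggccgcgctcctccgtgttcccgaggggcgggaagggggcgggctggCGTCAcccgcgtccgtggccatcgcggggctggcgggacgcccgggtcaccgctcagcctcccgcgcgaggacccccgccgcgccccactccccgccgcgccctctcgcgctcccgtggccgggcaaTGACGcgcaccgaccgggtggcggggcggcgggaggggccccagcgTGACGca
Klf4 (chr4:55532476-55532725, - strand): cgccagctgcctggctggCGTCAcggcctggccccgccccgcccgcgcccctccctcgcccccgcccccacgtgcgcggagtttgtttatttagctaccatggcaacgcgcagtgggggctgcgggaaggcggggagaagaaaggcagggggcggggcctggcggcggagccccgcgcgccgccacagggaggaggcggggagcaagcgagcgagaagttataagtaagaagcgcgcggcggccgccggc
Nr4a1 had 4 cores, whose first bases lay at -233, -213, -69 and -40 from the start, a number reached by 0.137% of all windows. Cebpb had 3, at -180, -53 and -7, and at least 3 were in 0.688% of all windows, while Klf4 had 1, at -232. The full element, TGACGTCA, which holds the core on both strands, was in none of the 11 windows (1.55% of all windows). Neither were the letters searched for PU.1 (GAGGAAGT, 2.44% of all windows), the interferon response element (GAAA, any 2 bases, GAAA, 2.98%), MEF2 (CTA, any 4 bases, TAG, 3.2%), RUNX (TGTGGT, 14%), KLF (CCACACCC, 3.2%), C/EBP (TTGCNNAA, 9.56%), NR4A (AAAGGTCA, 1.34%) and the MAF core (TGCTGAC, 3.81%), all searched on both strands. Such matches describe letters and not binding.

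The next question was whether repopulation after BLZ945 altered the factors 8 weeks later. In MG, 0 of the 9 members were called between BLZ945 and CTL with edgeR, where 0.408% of 11264 genes were called. At an unadjusted p under 0.05 there were 4 members (of 1492 genes), and DESeq2 called 0 members and 268 of 12382 genes. The log2 fold change was 0.64 for Klf4 (interval 0.14 to 1.15, adjusted p = 0.263), 0.41 for Cebpb (interval 0.013 to 0.81, adjusted p = 0.364), 0.31 for Runx1 (interval 0.081 to 0.54, adjusted p = 0.234) and -0.33 for Maf (interval -0.63 to -0.027, adjusted p = 0.339). The groups overlapped for all 9 members (3.09% of all genes did not overlap). For Irf8 the interval was -0.15 to 0.27, for Mef2c -0.24 to 0.24 and for Spi1 -0.38 to 0.011. Among the relatives, 1 of 10 tested KLF genes was called higher in MG BLZ945, Klf13, with 74.9 against 45.7 CPM (log2 fold change 0.70 ± 0.13, SE, adjusted p = 0.0254). Of 12 tested further macrophage factors 1 was called, Bhlhe40 (log2 fold change 2.77, adjusted p = 0.0132, 15.8 against 2.27 CPM).

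In tdT- sdCAMs, 0 of the 9 members were called between BLZ945 and CTL (0% of 13076 genes called), and 0 members had an unadjusted p under 0.05 (of 697 genes). DESeq2 called 0 members and 62 of 14371 genes. The groups overlapped for all 9 members, where 1.84% of all genes did not. Changes on the log2 scale lay between -0.39 for Mef2a (interval -0.85 to 0.074) and 0.30 for Runx1 (interval -0.27 to 0.87). For Nr4a1 the interval, -1.40 to 1.30, did not exclude changes of more than 2-fold in either direction, whereas for Irf8 it was -0.35 to 0.22 and for Spi1 -0.18 to 0.36.

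Between tdT+ and tdT- sdCAMs of BLZ945 animals, which differ in the Ccr2 mark, 0 of the 9 members were called with edgeR and with DESeq2, where edgeR called 0.206% of the genes tested, 0.0153% with more and 0.191% with less in tdT+ cells, and 3.4% did not overlap. DESeq2 called 174 of 13830 genes. At an unadjusted p under 0.05 there was 1 member (of 903 genes), Runx1, with a log2 fold change of -0.69 (interval -1.37 to -0.011, adjusted p = 0.713). Within the 3 pairs of libraries (F2, F3 and M2), Runx1 was lower in the tdT+ library of F2 and F3 and higher in that of M2. Klf4 and Maf were lower in the tdT+ library of 3 of 3 pairs, by 0.24 to 0.87 and by 0.014 to 0.27 on the log2 scale. Every other member went both ways over the pairs. The share of all genes with 3 pairs in 1 direction was not computed. In edgeR the log2 fold change was -0.33 for Klf4 (adjusted p = 0.982) and -0.034 for Maf (adjusted p = 0.9995). For the other members the log2 fold change lay between -0.45 (Mef2a) and 0.34 (Nr4a1), in a fit without the pairing. With each animal or pool as a block Nr4a1 turned to -0.408, and without single libraries it lay between -0.332 and 0.908. Mef2a lay between -0.441 and -0.128 in the alternatives that kept all libraries.

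Between tdT+ BLZ945 and tdT- CTL sdCAMs, 0 members were called with either tool (0.283% of the genes tested in edgeR, 0.0688% with more and 0.214% with less in tdT+ cells), and 1 member of 973 genes, Mef2a, had an unadjusted p under 0.05. Its 3 tdT+ libraries (100.4 to 133 CPM) lay below all 5 tdT- CTL libraries (159 to 242 CPM), as 8.16% of all genes did not overlap, and the log2 fold change was -0.83 (interval -1.38 to -0.29, adjusted p = 0.383). In the interaction test, which asks whether BLZ945 was followed by different changes in tdT- sdCAMs and in MG, 0 members were called with either tool (0.0394% of 12697 genes in edgeR), with 1 member of 1104 genes, again Mef2a, under an unadjusted p of 0.05 (log2 difference -0.56, interval -1.10 to -0.018, adjusted p = 0.553). For Maf, whose fold over MG was 3.59 in CTL and 5.23 in BLZ945 animals, the difference was 0.54 (interval -0.036 to 1.12, adjusted p = 0.610). The comparisons of sdCAM groups share libraries with each other.

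**Figure D5:**
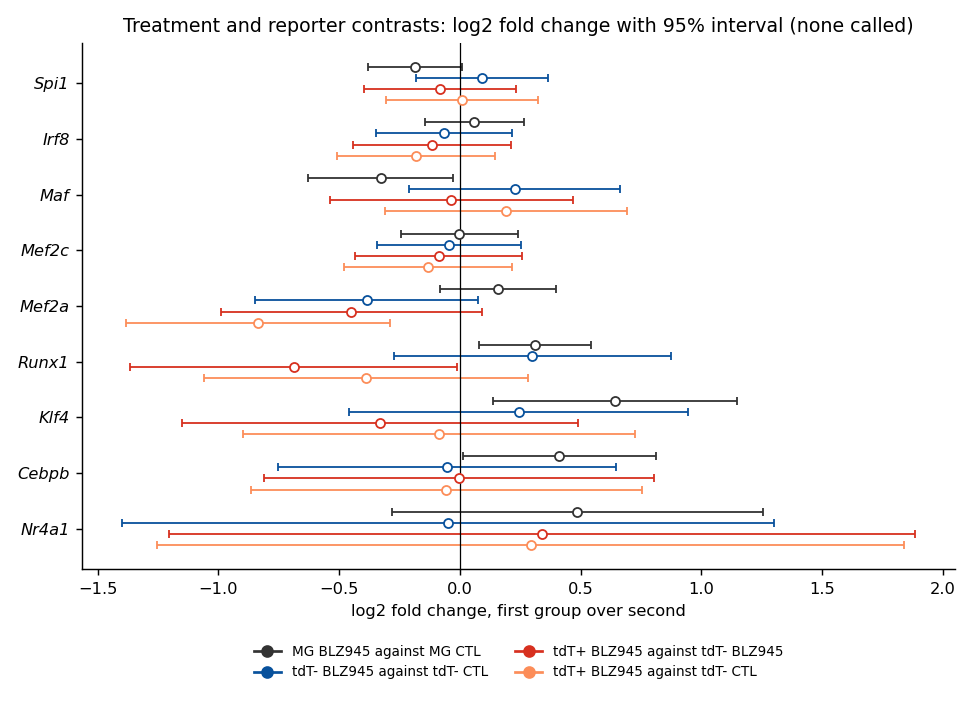
Log2 fold change of each factor (horizontal axis, first group over second) with its 95% interval for BLZ945 against CTL in MG and in tdT- sdCAMs, and for tdT+ sdCAMs against each tdT- group. All points are open, since no adjusted p-value was under 0.05, and intervals are narrowest for Spi1 and Irf8 and widest for Nr4a1.

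The relatives of the members and other genes of their pathways were described by lists. Between tdT- CTL sdCAMs and MG CTL, 6 of 15 tested further macrophage factors were higher and 6 lower. Ahr, the aryl hydrocarbon receptor, lay at 33.2 against 0.468 CPM and Tfec, a relative of MITF, at 45.8 against 1.37 CPM (tdT- CTL first), while Sall3, a relative of the microglia factor SALL1, lay at 1.55 against 58.0 CPM. Of 11 ETS relatives of Spi1 2 were higher (Spic, a factor of iron-handling macrophages, 35.9 against 0.273 CPM, and Ets2) and 1 lower (Ets1, 9.26 against 110 CPM), with a list median of -0.086 on the log2 scale. Of 7 IRF relatives 3 were higher, among them Irf7 (142 against 33.1 CPM) and Irf4 (24.0 against 2.703 CPM), and 1 was lower, Irf5 (296 against 494 CPM), with a median of 0.22. Irf4 and Irf7 thus went opposite to Irf8.

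Of 11 KLF relatives 5 were higher and 1 lower, with a median of 0.58, and the named ones were Klf9 (36.4 against 3.15 CPM), Klf6 (1121 against 501 CPM) and Klf13 (68.5 against 45.7 CPM), which went with Klf4. Of 3 C/EBP relatives of Cebpb 2 were lower, Cebpa (56.2 against 109 CPM) and Cebpg (125 against 200 CPM), with a median of -0.68. Mef2d, the 1 tested MEF2 relative, was not called (log2 fold change -0.20, adjusted p = 0.670), and of 4 class IIa histone deacetylases, which repress MEF2 proteins, Hdac9 was higher (55.8 against 12.0 CPM, log2 fold change 2.21 ± 0.34, SE, adjusted p = 2.63e-05) and 3 were not called. Of the 2 tested genes of the RUNX list, 1 was higher and 1 was not called, and the 1 tested NR4A relative was higher.

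Of 10 genes known as targets of the factors, 3 were higher, 2 lower and 5 not called (median 0.13). Cybb, the NADPH oxidase subunit and a target of PU.1 and IRF8, was higher in sdCAMs (530 against 45.0 CPM), opposite to Irf8. Il10, a target of MAF, lay at 20.3 CPM in tdT- CTL and 0.017 CPM in MG CTL, in the direction of Maf. Il6 was lower (3.55 against 27.8 CPM). Of 14 immediate early genes 4 were higher and 10 not called, with Fos at 8387 against 2451 CPM. The background for these counts is the 15.3% higher and 10.3% lower of all genes.

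In BLZ945 animals, tdT- sdCAMs differed from MG in 5 higher and 6 lower of the 15 further factors, 1 higher and 3 lower of the 11 ETS, 1 and 1 of the 7 IRF, 4 and 1 of the 11 KLF and 0 and 1 of the 3 C/EBP relatives. The targets counted 4 higher and 3 lower of 10, the immediate early genes 4 higher and 2 lower of 14, and the MEF2 repressors 1 higher of 4, Hdac9 (66.8 against 12.2 CPM). With tdT+ sdCAMs, 4 and 5 of the further factors, 1 and 3 of the ETS, 1 and 1 of the IRF, 2 and 1 of the KLF and 0 and 1 of the C/EBP relatives were called higher and lower, with 2 and 1 of the targets, 3 and 0 of the immediate early genes and 0 of the MEF2 repressors. Of all genes, 18.3% were higher and 14.1% lower in tdT- BLZ945, and 11.8% higher and 7.05% lower in tdT+ sdCAMs. Sall1, a factor that defines microglia, lay at 1.63 CPM in tdT- BLZ945 and 1.95 CPM in tdT+ BLZ945 sdCAMs, against 210.7 CPM in MG BLZ945. Ets1, Irf5 and Cebpa were lower and Spic and Klf9 higher in both.

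For the members called in CTL animals, the genes with the most similar pattern over the 23 libraries were sought among 4908 genes, by the root mean square difference of centred log2(CPM + 1) values. They were Mertk (0.19) and Akirin2 (0.19) for Irf8, Gmfg (0.25) and Clec4a2 (0.27) for Maf, Ddx5 (0.16) and Slc35b2 (0.18) for Mef2c, and Cttnbp2nl (0.25) and Arhgap25 (0.28) for Mef2a. For Runx1 they were Mknk1 (0.31) and Prkab1 (0.32), for Klf4 Marcksl1 (0.38) and Rbms1 (0.42), for Cebpb Cd14 (0.33) and Snx24 (0.37), and for Nr4a1 Nfkbiz (0.64) and Fos (0.68). The difference should be read against the SD of the member itself, which was 0.50 for Irf8, 1.09 for Maf, 0.28 for Mef2c, 0.65 for Mef2a, 0.56 for Runx1, 1.21 for Klf4, 0.52 for Cebpb and 1.24 for Nr4a1.

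Levels per kilobase of exons allow different genes to be compared roughly. The length is that of all annotated exons of a gene, and not of the transcripts present, so the order depends on the annotation. In MG CTL the order of the members was Cebpb (294 CPM per kb), Spi1 (183), Irf8 (111), Maf (33.0), Mef2c (30.4), Nr4a1 (26.3), Mef2a (22.2), Runx1 (9.44) and Klf4 (6.49). Neighbours among Maf, Mef2c, Nr4a1 and Mef2a differed by less than the larger of their SDs. In tdT- CTL the order was Cebpb (479), Spi1 (167), Maf (119), Nr4a1 (79.4), Irf8 (61.2), Klf4 (37.8), Mef2c (23.5), Mef2a (14.2) and Runx1 (6.12), where Maf and Nr4a1, Nr4a1 and Irf8, and Klf4 and Mef2c differed by less than the larger of their SDs. Maf thus passed Irf8, and Klf4 passed Mef2c, Mef2a and Runx1, while Cebpb and Spi1 kept the first places in both populations.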

How the data were processed

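RNA of sorted cells was sequenced from SMART-Seq mRNA LP libraries, for which the strand of counting was not stated. The deposited counts (whole reads per gene, not normalized) were made by the authors, per the submitters' processing notes, with bcl2fastq 2.20, STAR 2.7.11a and featureCounts 2.0.6 (the study's methods give another featureCounts version), and the authors named DESeq2 1.46.0 for their own tests. Which mouse genome build stands behind the table could not be settled, so no coordinates were taken from it. The study left out immediate early, ribosomal, mitochondrial and very low genes in its bulk analyses, and they were kept here. Of the 33280 genes, 9482 had no count in any of the 23 libraries.

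Counts were tested with edgeR 4.0.16 (R 4.3.3; TMM factors, filterByExpr, glmQLFit and glmQLFTest), with a Benjamini-Hochberg adjustment over all genes tested. MG and tdT- sdCAMs were compared within each treatment, together with the interaction, in 1 model of their 20 libraries, tdT+ sdCAMs with MG in the 13 BLZ945 libraries, the 2 MG groups in their 10 libraries and the sdCAM groups in their 13 libraries. Alternatives were DESeq2 1.42.0, RLE factors, no filter, a filter of 10 counts in every library, 1 model of all 23 libraries, a block and leaving out each library. The code was tested on simulated data. Permutation tests used scipy 1.17.1, numpy 2.4.6 and pandas 2.3.3. CPM values carry TMM factors, log2 values for patterns a pseudocount of 1, and 3 counts corresponded to 0.230 to 0.331 CPM. Levels per kilobase used the union of exons in GENCODE M21 and promoters RefSeq starts in GRCm38.p6.

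Within a treatment the same label named the same animal or pool, and deviations from the group means correlated by 0.110 on average in CTL animals and by 0.0817 (MG and tdT-), 0.131 (MG and tdT+) and 0.0686 (tdT- and tdT+) in BLZ945 animals. Between treatments the animals differed and shared a number only. Groups came from the sample labels. Samples of a group were separate animals or pools.

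The members, lists and tests were chosen with earlier results of these data known. Named genes were the 9 members and, from each list, at most 3 called genes with the largest log2 fold change, a mean log2 CPM of at least 3 and no overlap between groups, and the 2 genes most like each member called between tdT- CTL and MG CTL. Cell type markers named singly, sex-linked genes, Mef2d and overlapping genes lie outside this rule and were named after their values were seen. Results of 1 list of relatives and of 1 marker gene are not reported here.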

Additional observations from a re-analysis of the deposited data

Results flagged for a closer look

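In 36 groups of 4 or more libraries, each member's highest and lowest library was compared with the others by Dixon's test (critical value 0.71 for 5 libraries), and 5 values stood apart. Chance flags about 1 in 20 groups. Maf was high in tdT- CTL F3 (1528 CPM, next 897 CPM) and in tdT- BLZ945 F2 (1685 CPM, next 1044 CPM). Cebpb was high in MG BLZ945 F3 (843 CPM, next 566 CPM) and in tdT- CTL F3 (1098 CPM, next 679 CPM), and Nr4a1 in MG CTL F3 (170 CPM, next 84.3 CPM). Of these 5 values, 2 came from tdT- CTL F3 and 4 from libraries that carried the label F3, which names different animals in the CTL and BLZ945 groups. The library tdT- CTL F3 also held the highest sum of immediate early genes (39178 CPM).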

How the results depend on the processing

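The number of members called lay between 6 and 8 for tdT- CTL against MG CTL, 6 and 7 for tdT- BLZ945 and 6 and 7 for tdT+ BLZ945 against MG BLZ945, and was 0 for the other 5 comparisons under every alternative run. In the main fits of the first 3 comparisons 25.6%, 32.4% and 18.9% of all genes were called. DESeq2 called 8, 6 and 6 members there, and 3913 of 14807, 4851 of 14506 and 3303 of 13604 genes. The calls that changed concerned Mef2c, Cebpb and Nr4a1, with their values beside the results. The animal block called Nr4a1 between tdT- BLZ945 and MG BLZ945 (log2 1.02) and changed no other call of a member. With 5 or 3 libraries a group, SEs reached 0.75 on the log2 scale (Nr4a1, tdT+ BLZ945 against MG BLZ945). Intervals cover the spread between libraries, and strand and pooling could not be varied.

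Directions reversed only where no call was made, and the cause was not tested. With the animal block, log2 fold changes of tdT+ BLZ945 against MG BLZ945 were -0.011 (Spi1) and -0.068 (Cebpb), and Nr4a1 against tdT- BLZ945 was -0.408. With the replicate number as a block, they were -0.057 (Spi1) and -0.516 (Nr4a1) for tdT+ BLZ945 against tdT- CTL and 0.0095 (Mef2c) for MG BLZ945 against MG CTL, where Mef2c was 4.17e-05 with DESeq2 and 0.0082 in the model of all libraries. Cebpb in tdT+ against tdT- BLZ945 was 0.0075 (DESeq2), 0.0080 (RLE), 0.0031 (no filter), 0.0231 (10 counts) and 0.0094 (all libraries), and the interaction of Runx1 was 0.0011 (DESeq2) and 0.00105 (RLE).

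Without single libraries, ranges that held both signs were as follows. For tdT+ BLZ945 against MG BLZ945 they were -0.0247 to 0.183 (Spi1) and -0.485 to 0.544 (Cebpb). Against tdT- BLZ945 they were -0.147 to 0.0623 (Spi1), -0.196 to 0.158 (Maf), -0.697 to 0.334 (Cebpb) and -0.332 to 0.908 (Nr4a1). Against tdT- CTL they were -0.0685 to 0.141 (Spi1), -0.500 to 0.216 (Klf4), -0.765 to 0.267 (Cebpb) and -0.396 to 0.844 (Nr4a1). For tdT- BLZ945 against tdT- CTL they were -0.122 to 0.0734 (Mef2c), -0.214 to 0.148 (Cebpb) and -0.278 to 0.214 (Nr4a1), for MG BLZ945 against MG CTL -0.0791 to 0.0698 (Mef2c), and for the interaction -0.131 to 0.0778 (Mef2c) and -0.212 to 0.0938 (Runx1).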
